A study of Mus musculus with 4 samples.

Results

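The cells described here are macrophages of the mouse fracture callus that carry the mannose receptor Mrc1 together with the folate receptor Folr2 or the carbonyl reductase Cbr2. Their working name is resident-like, after 5 markers (Mrc1, Folr2, Cbr2, Cd163 and Ccl8). Each cell was chosen on its own raw counts of unique molecular identifiers (UMIs, where 1 UMI stands for 1 captured mRNA molecule). It needed at least 3 Mrc1 UMIs, at least 2 UMIs of Folr2 and Cbr2 together and at least 1 Csf1r UMI, with at most 1 UMI of the proliferation gene Mki67 and an upper limit on 1 further gene that is not reported here. The rule found 2887 cells among 25479 that met the cell limits of the study's methods, or 11.3% (exact 95% interval 10.9 to 11.7). The 4 libraries contributed 985 cells (control_4d), 611 (RA_4d), 666 (control_7d) and 625 (RA_7d).

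The study used single-cell RNA sequencing (scRNA-seq) of callus scraped from wild-type C57BL/6J mice at 4 or 7 days post fracture (dpf). Fractures were made at 3 months of age. Control mice received vehicle and RA mice received K/BxN serum, whose transfer brings on arthritis, to ask how systemic inflammation changes fracture repair. Each group is 1 library from 1 pool of calluses, so the control against RA comparisons have no replicate, and age, strain and genotype are shared by all 4 groups. The sources differ on the size of a pool, with n = 4 in the series design and n = 3 in the methods of the paper. Any pair of libraries shared between 10 and 31 of their cell barcodes, and between 5 and 15 of those of cells that were kept.

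Tissue-resident macrophages sit around vessels and in connective tissue, where they take up debris, haemoglobin and apoptotic cells and release chemokines that call in other leukocytes. Mrc1, Folr2, Cd163 and Lyve1 are surface proteins known from such cells in many organs, and Timd4 marks residents of embryonic origin in several of them. Monocytes that enter an injury carry Ly6c2 and Ccr2 and can take on macrophage genes as they mature, so that RNA alone does not give the origin of a callus macrophage.

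The promoters of the 5 markers are shown because these genes define the cells or set them apart from the other macrophages. Each sequence holds the 200 bases upstream of a RefSeq start on GRCm38.p6, 5′ to 3′ on the strand of the gene. Folr2 had 2 listed starts, and its coordinates show the stretch that was used. The stretches are chr2:14229214-14229413 on the plus strand for Mrc1, chr7:101857191-101857390 on the minus strand for Folr2, chr11:120732022-120732221 on the minus strand for Cbr2, chr6:124304451-124304650 on the plus strand for Cd163 and chr11:82114985-82115184 on the plus strand for Ccl8. Capitals mark 2 motifs, which were searched on both strands and do not overlap here. The first is the Maf half-site, spelled TGCTGA. The second is the core bound by ETS factors such as the myeloid factor PU.1, spelled GAGGAA, and either may stand in its reverse complement.
Mrc1: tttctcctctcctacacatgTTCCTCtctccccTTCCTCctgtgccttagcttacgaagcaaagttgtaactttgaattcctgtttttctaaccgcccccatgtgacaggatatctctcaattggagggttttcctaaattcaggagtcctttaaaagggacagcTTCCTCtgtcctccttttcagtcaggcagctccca
Folr2: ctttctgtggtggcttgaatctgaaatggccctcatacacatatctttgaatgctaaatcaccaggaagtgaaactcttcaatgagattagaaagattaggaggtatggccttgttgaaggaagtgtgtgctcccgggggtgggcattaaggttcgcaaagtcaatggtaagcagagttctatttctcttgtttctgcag
Cbr2: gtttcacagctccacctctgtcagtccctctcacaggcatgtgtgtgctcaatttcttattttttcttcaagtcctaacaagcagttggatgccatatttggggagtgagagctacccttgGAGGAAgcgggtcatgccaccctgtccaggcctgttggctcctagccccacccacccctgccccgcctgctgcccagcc
Cd163: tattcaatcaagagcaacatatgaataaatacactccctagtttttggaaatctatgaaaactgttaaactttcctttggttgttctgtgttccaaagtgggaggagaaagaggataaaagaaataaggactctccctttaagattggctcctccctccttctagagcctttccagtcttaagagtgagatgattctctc
Ccl8: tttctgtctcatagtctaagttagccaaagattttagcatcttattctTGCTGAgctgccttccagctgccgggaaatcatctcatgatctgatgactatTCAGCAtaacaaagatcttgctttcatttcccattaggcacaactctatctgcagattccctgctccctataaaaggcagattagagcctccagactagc
The Mrc1 stretch held 3 ETS cores and the Cbr2 stretch 1, the Ccl8 stretch held 2 Maf half-sites, and neither motif was in the Folr2 or Cd163 stretch. Of 27025 mouse promoters of this length, 13% held the Maf half-site and 18.9% the ETS core. Among 24 promoters of the resident macrophage list and the markers, 6 (25%) and 10 (41.7%) held them. A match describes the letters of the sequence and is not a bound site.

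Resident-like cells made up 18.0% of kept cells in control_4d (17.0 to 19.1), 14.9% in RA_4d (13.8 to 16.0), 8.68% in control_7d (8.06 to 9.33) and 7.60% in RA_7d (7.04 to 8.19). The share in RA was 0.826 times that in control at 4 dpf (0.745 to 0.914) and 0.876 times at 7 dpf (0.784 to 0.979). Among Csf1r cells, those with a UMI of the receptor for macrophage growth factor, the shares were 30.1%, 28.0%, 21.4% and 29.9% in the same order. With that denominator RA lay above control at 7 dpf, by a factor of 1.40 (1.25 to 1.56), although it lay below control among all kept cells. Among all kept cells RA also lay above control at 7 dpf under a stricter rule of at least 5 Mrc1 and 4 Folr2 and Cbr2 UMIs (1.16, 1.01 to 1.33), and with looser cell limits the interval included no difference (0.932, 0.838 to 1.04). The order of the 7 dpf libraries thus depended on the denominator and on the rule, whereas at 4 dpf RA was the lower library over both denominators, with an interval that includes no difference among Csf1r cells (0.929, 0.838 to 1.03). From 4 to 7 dpf the share of kept cells was 0.482 times as large in control and 0.511 times in RA. Among Csf1r cells the ratio was 0.711 in control (0.644 to 0.786) and 1.07 in RA (0.954 to 1.20), and among Ptprc cells, those with a UMI of the leukocyte marker CD45, it was 0.734 and 1.18 (1.06 to 1.33), so in RA the direction over time turned with the denominator. Mesenchymal cells numbered 862 of 5470 kept cells in control_4d, 692 of 4110 in RA_4d, 2811 of 7676 in control_7d and 3797 of 8223 in RA_7d, so the denominator of all kept cells held more of them at 7 dpf in both treatments. Among the Csf1r cells outside the rule, 8.05%, 6.93%, 29.1% and 48.0% were rich in collagen RNA (over 1000 UMI counts-per-million (CPM, a gene's share of all UMIs in the same cells) for Col1a1, Col1a2 and Col3a1 together). All intervals cover counting error only, since cells of 1 library are not replicates.

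**Figure D1:**
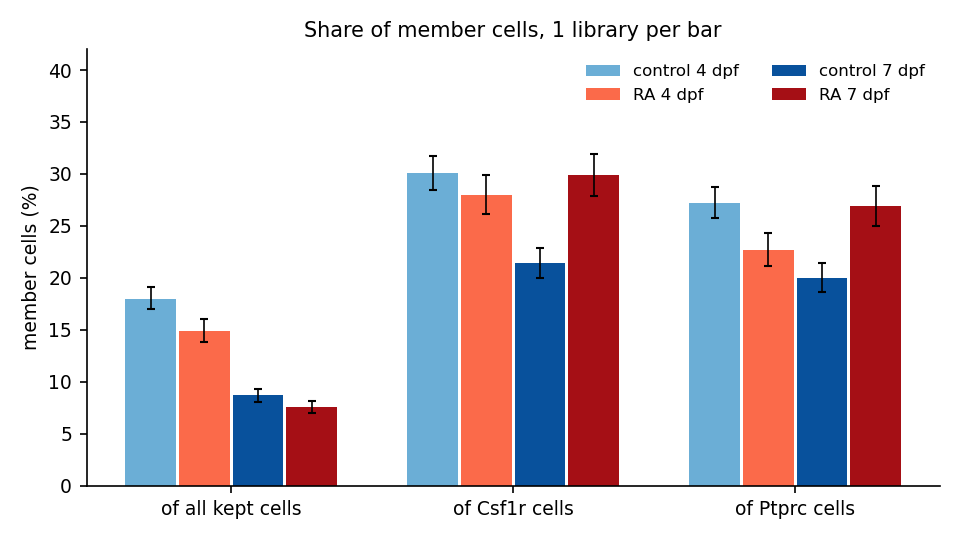
Percent of cells in each library that met the resident-like rule, out of all kept cells, Csf1r cells and Ptprc cells. Bars are single libraries and error bars are exact 95% binomial intervals for counting error; at 7 dpf RA sits below control among all kept cells (7.60% and 8.68%) and above it among Csf1r cells (29.9% and 21.4%).

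The values that chose the cells varied widely among them. The median member held 23 Mrc1 UMIs in control_4d, 19 in RA_4d, 13 in control_7d and 20 in RA_7d, far above the minimum. The Folr2 median was 4, 3, 2 and 5 UMIs and the Cbr2 median 5, 2, 2 and 2, which lie at or near the minimum of the rule. Just inside that limit, 460 cells held exactly 2 UMIs of Folr2 and Cbr2 together and had 1066 Ccl8 CPM. Just outside it, 709 cells held 1 UMI and had 679 Ccl8 CPM. For Mrc1, the 84 cells at 3 UMIs had 229 Ccl8 CPM and the 86 cells at 2 UMIs had 150. For Csf1r, the 100 cells at 1 UMI had 652 and the 39 cells at 0 had 299. For the upper limit on Mki67, 255 cells at 1 UMI had 3543 against 2576 in 47 cells at 2. These values pool the libraries, and the order was not the same in each of them. In control_4d the cells outside the Csf1r limit had more Ccl8 (933 CPM against 151 inside) and the Mki67 limit showed no gap (3953 against 3896), and in control_7d the cells outside the Mrc1 limit had more (484 against 211). For Folr2 and Cbr2 together the cells inside had more in all 4 libraries. The median member held 16045 UMIs in control_4d, 16364 in RA_4d, 12383 in control_7d and 13116 in RA_7d, beside 14828, 15837, 12186 and 13816 in the other Csf1r cells.

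The 2 markers that the rule did not use, Ccl8 and Cd163, were both concentrated in the chosen cells. They were picked with earlier results of these data known, so their levels are a description and not independent support for the name. Ccl8, a chemokine of the monocyte chemoattractant family, stood at 4117 CPM in control_4d, 2420 in RA_4d, 2320 in control_7d and 4459 in RA_7d. The other Csf1r cells of these libraries held 171, 85.6, 160 and 312 CPM. Cd163, the scavenger receptor for haptoglobin-bound haemoglobin, stood at 114, 99.9, 28.8 and 81.6 CPM against 6.14, 1.95, 0.522 and 1.99. A Ccl8 UMI was found in 71.9%, 61.2%, 64.1% and 83.4% of members, and a Cd163 UMI in 26.0%, 21.1%, 11.3% and 21.4%. Mesenchymal cells, which are not macrophages and are deeper (median 30170, 30086, 23758 and 23836 UMIs), held a Ccl8 UMI in 43.3%, 34.8%, 20.9% and 48.6% of cells and a Cd163 UMI in 0.464%, 0.289%, 0.356% and 0.237%. With every cell thinned to 4000 UMIs, the Ccl8 shares were 63.6%, 52.0%, 56.6% and 77.3% in members and 16.5%, 12.7%, 6.58% and 22.8% in mesenchymal cells. Ccl8 UMIs were thus also found in many mesenchymal cells, whereas Cd163 UMIs were rare there. Whether the former come from these cells or from free RNA was not tested.

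Other markers of residency were scarce. Timd4 was found in 8, 6, 2 and 8 members, or 0.812%, 0.982%, 0.300% and 1.28%, and was not called between members and other Csf1r cells in the edgeR fit described below (log2 fold change 1.47 ± 0.87 SE, adjusted p = 0.203). Lyve1, a hyaluronan receptor, was found in 12.1%, 5.89%, 3.90% and 6.72% of members, against 1.42% to 1.51% of mesenchymal cells, and the complement receptor Vsig4 in 3.96%, 2.45%, 1.35% and 2.88%, both higher than in other Csf1r cells (2.65 ± 0.22 and 4.61 ± 0.33). Ccr2, the receptor that leads monocytes out of the blood, was found in 52.9%, 45.8%, 28.4% and 30.2% of members and in 1.86%, 2.60%, 0.925% and 0.685% of the deeper mesenchymal cells. With every cell thinned to 4000 UMIs the shares were 40.6%, 31.3%, 20.4% and 22.4% against 0.232%, 0.434%, 0.142% and 0.132%. Its level of 245, 160, 106 and 111 CPM was not called against other Csf1r cells in edgeR's test (log2 fold change 0.10 ± 0.14 SE, adjusted p = 0.589). The cells thus carry the markers that they were chosen by or named after, yet Timd4 is near 0 and Ccr2 is common. The word resident-like stands for the rule and not for an origin.

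**Figure D2:**
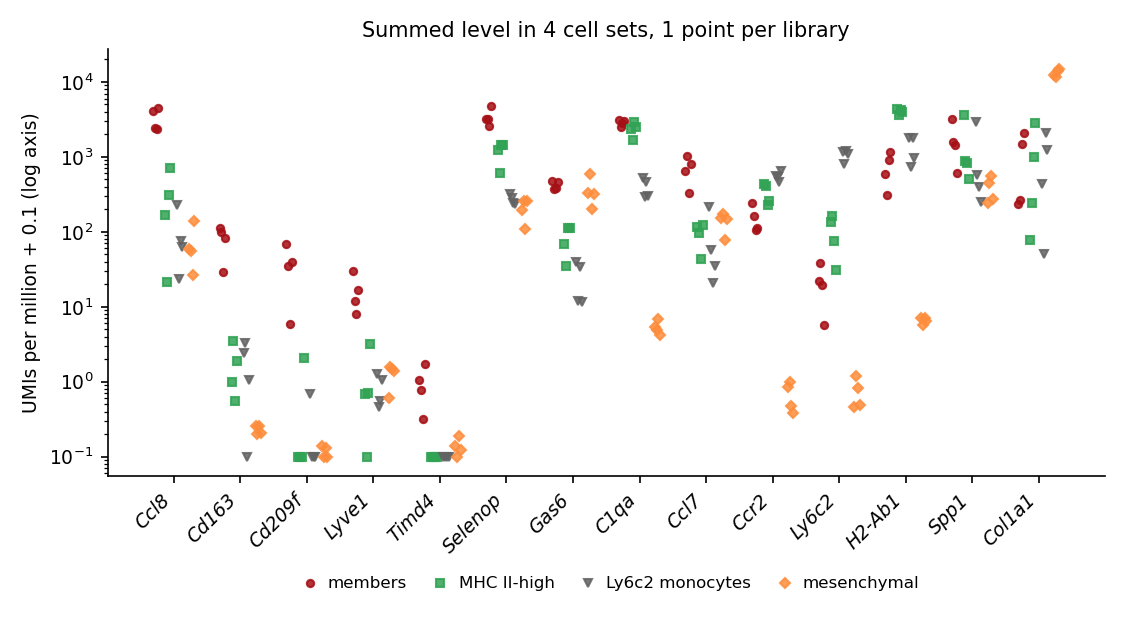
CPM, plus 0.1, on a log axis for 14 genes in 4 cell sets, with 1 point per library and set (sums over the cells of a set). Ccl8, Cd163, Cd209f and Selenop lie highest in the members, H2-Ab1 in the MHC II-high macrophages, Ly6c2 in the monocytes and Col1a1 in mesenchymal cells, while Timd4 does not pass 1.64 CPM in any member library.

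The members were then compared with the other 7768 Csf1r cells, on counts summed per library (edgeR's quasi-likelihood test with the library as a block and Benjamini-Hochberg adjustment over 16341 genes). Because the rule sorts cells by Mrc1 and Folr2, genes that go with these differ through the choice of cells, and the adjusted p measures how well the 4 libraries agree. The 6 genes of the rule were not read. A gene was called at an adjusted p under 0.05 and at least 2-fold, which held for 674 genes higher (4.12%) and 2600 lower (15.9%) in members, around a median of −0.07 on the log2 scale. Of 28 further resident macrophage genes, 25 were higher and 0 lower, with a median of 1.93.

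Lectins and scavenger receptors bind sugars and modified proteins on microbes and debris. Of 15 such genes 11 were higher. The C-type lectin Cd209f held 69.7, 34.8, 5.87 and 39.4 CPM in members and 0.536, 0.168, 0 and 0.358 in other Csf1r cells, a log2 fold change of 7.30 ± 0.22 (adjusted p = 4.26e-05). It came from few cells, since a Cd209f UMI was found in 4.37%, 3.27%, 1.05% and 5.28% of members. Cd163 was higher by 5.22 ± 0.26 (adjusted p = 7.43e-05), the ficolin Fcna by 2.89 ± 0.18 and the galactose lectin Clec10a by 2.65 ± 0.14. Clec10a was spread more evenly, at 171, 165, 73.6 and 208 CPM against 33.2, 33.6, 15.3 and 23.7. Cd209f and its neighbour Cd209g lie close together on chromosome 8 (chr8:4102787-4105835 and chr8:4134098-4137707), and both had their lowest member level in control_7d.

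Part of the chemokine genes were higher. Of 21 tested, 10 were higher and 3 lower, beside 4.12% and 15.9% of all genes tested. Of the 10, 4 sit in 1 cluster on chromosome 11, in the order Ccl2 (chr11:82035571-82037453), Ccl7 (chr11:82045712-82047525), Ccl12 (chr11:82101845-82103400) and Ccl8 (chr11:82115185-82116799). Ccl8 was higher by 4.41 ± 0.22 (adjusted p = 7.43e-05). Ccl7, which draws monocytes through Ccr2, averaged 702 ± 293 CPM (SD, n = 4 libraries) in members and 113 ± 40.9 in other Csf1r cells. The 4 libraries differ in treatment or time, so such an SD, here and below, is not a spread of replicates. The log2 fold change of Ccl7 was 2.74 ± 0.18. Ccl12 was higher by 2.37 ± 0.12, and Ccl3 and Ccl4, which lie elsewhere on the chromosome, by 2.35 ± 0.14 and 2.49 ± 0.11. Ccl2 (136 to 235 CPM), Ccl7 (78.6 to 171) and Ccl8 (26.5 to 138) were also present in mesenchymal cells, where Ccl12 did not pass 2.81.

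Inflammatory mediators fell on both sides. Of 14 genes 3 were higher and 6 lower. Tnf held 57.8, 58.6, 46.8 and 63.8 CPM in members and 23.0, 21.1, 18.3 and 22.3 in other Csf1r cells (log2 fold change 1.56 ± 0.07). Il1b was lower, at 43.2, 32.7, 47.5 and 35.9 CPM against 143, 111, 110 and 108 (−1.44 ± 0.09). Il10, an anti-inflammatory cytokine, held 56.0, 51.0, 38.6 and 51.5 CPM against 16.7, 15.7, 14.5 and 16.7 (1.76 ± 0.09). In each library the members had more Tnf and Il10 with less Il1b. Against the C1qa cells described below, 0 of 12 inflammatory mediators were higher and 1 was lower. Tslp, an epithelial-type cytokine, was low but higher by 3.52 ± 0.17 (20.6 ± 12.3 CPM against 1.85 ± 0.684), and the endothelin receptor Ednrb by 3.36 ± 0.21 (190 ± 70.2 against 21.1 ± 11.5).

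Genes for the uptake of debris and iron were higher in part. Of 13 complement genes 9 were higher and 1 lower. C1qa, a chain of the C1q recognition molecule, held 3124, 2520, 2815 and 3023 CPM against 966, 615, 1102 and 821 (1.88 ± 0.12). Gas6, which bridges apoptotic cells to the receptor Mertk, held 478, 367, 385 and 457 against 114, 88.8, 128 and 147 (1.97 ± 0.12), and Mertk itself was higher by 1.48 ± 0.17. Mesenchymal cells held Gas6 at 330, 583, 201 and 323 CPM, above the members in RA_4d and below them in the other 3 libraries. Of 18 genes of apoptotic cell uptake, 4 were higher and 3 lower, beside 4.12% and 15.9% of all genes tested. The median of the list was 0.13, so the list as a whole did not share the direction of Gas6 and Mertk. Of 15 haem and iron genes 6 were higher, among them the iron exporter Slc40a1 (1.40 ± 0.13) and the haem-degrading Hmox1 (1.26 ± 0.13). Apoe, a lipid carrier, was the most abundant gene named here, at 17703, 13839, 22334 and 24471 CPM, and was higher by 1.77 ± 0.11. Selenop, a secreted selenium carrier, held 3237, 3230, 2607 and 4722 CPM against 600, 500, 808 and 796 (2.49 ± 0.17).

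Among regulators and growth factors, Maf, a transcription factor of mature macrophages, was higher by 1.79 ± 0.09 and Spic, a factor of iron-recycling macrophages, by 1.63 ± 0.08. Of 22 transcription factors 7 were higher and 1 lower, against 3 and 2 with cells thinned to 4000 UMIs and 4 and 1 under the stricter rule. Of 19 growth factors 7 were higher and 5 lower, with Pdgfc at 102, 108, 119 and 185 CPM against 25, 17.9, 51.3 and 49.5 (2.06 ± 0.21) and Vegfa on the other side (−1.17 ± 0.14). Of 12 Notch pathway genes 1 was higher and 7 lower. The higher one was the transcription factor Rbpj, at 419, 444, 316 and 493 CPM against 251, 199, 172 and 189 (1.18 ± 0.10), and Hes1, a target of the pathway, was lower (−1.18 ± 0.08). No Notch gene was called higher with cells thinned to 4000 UMIs, without collagen-rich cells or against the C1qa cells described next.

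**Figure D3:**
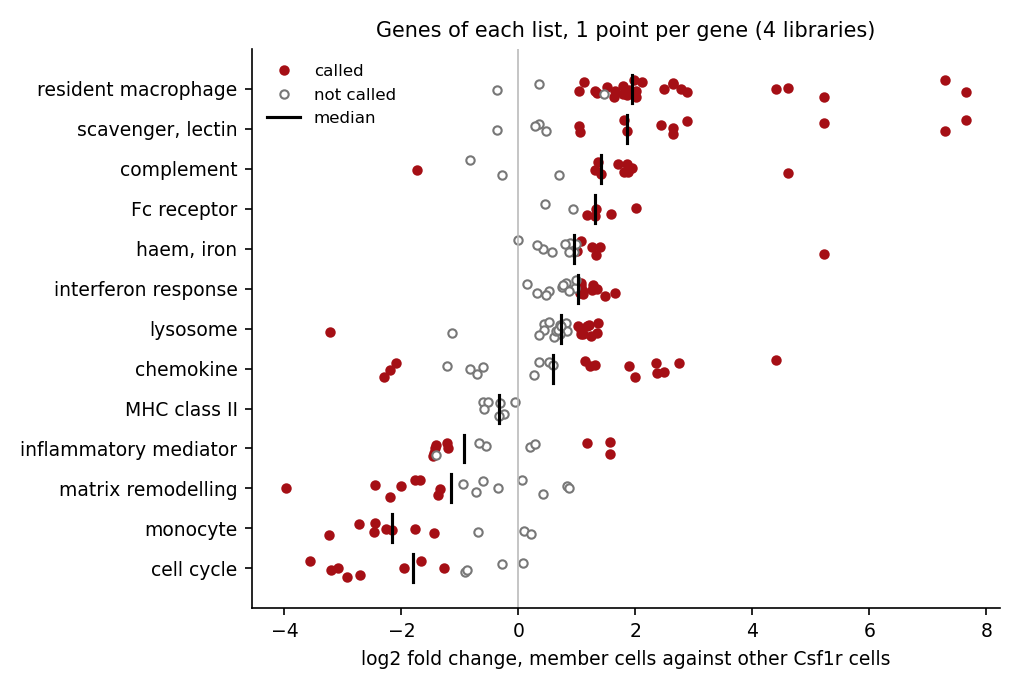
Log2 fold change of members against other Csf1r cells for the genes of 13 lists, 1 point per gene from the fit over 4 libraries; filled points were called, open points were not, and black bars are medians. The resident macrophage list has its median at 1.93 and the monocyte list at −2.16, and all 7 MHC class II genes are open points.

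The other Csf1r cells were a mixture. The 10 genes with the lowest fold changes, among those at 20 CPM or more in either set and lower in all 4 libraries, were mostly granule and antimicrobial genes of neutrophils and their precursors, such as Camp (3.78 ± 5.23 CPM against 334 ± 438, −6.33 ± 0.12), S100a8 and S100a9. When the other cells were limited to those with at least 3 C1qa UMIs, under the same upper limits as the members, 172 genes were higher and 179 lower (1.23% and 1.28% of 13936). The resident list then had 20 of 27 genes higher with a median of 1.48, the lectins and scavengers 9 of 15 and the chemokines 9 of 19. Cd209f (6.65), Cd163 (5.45), Ccl8 (3.52), Ccl7 (2.60), Gas6 (1.64), Selenop (1.16) and Maf (1.02) were still called. Of 13 complement genes 3 were higher, but the C1qa limit raised C1q genes in the other cells. The fall in the complement count was thus partly fixed by the choice of cells. By contrast with the resident list, the count went from 5 to 1 of 7 for Fc receptors. For interferon response genes it went from 10 to 1 of 20 and for lysosomal genes from 9 to 0 of 23. With cells thinned to 4000 UMIs and all other Csf1r cells kept, these 3 counts were 2, 5 and 2, and without collagen-rich cells the Fc receptor and lysosomal counts were 2 each. Against the C1qa cells the count of higher genes went from 7 to 1 of 22 for transcription factors, from 7 to 2 of 18 for growth factors and from 3 to 0 of 12 for inflammatory mediators. The lower Notch genes went from 7 to 1 of 12 and the lower inflammatory mediators from 6 to 1 of 12. Higher anti-inflammatory mediators went from 4 to 1 of 9. Slc40a1 (0.58), Hmox1 (0.81) and Apoe (0.42) were no longer called. For MHC class II, which presents antigen, 0 of 7 genes were called against all other Csf1r cells and 5 of 7 were lower against the C1qa cells.

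The members were also compared with 1199 MHC class II-high macrophages that were not members and with 556 Ly6c2 monocytes from the same libraries. Against MHC class II-high macrophages, which C1qa and H2-Ab1 defined and whose MHC class II and C1q genes were therefore not read, 252 genes were higher (1.85% of 13588) and 256 lower (1.88%). Of 27 resident genes 23 were higher, with a median of 1.75. Gas6 held 69.0, 35.1, 112 and 112 CPM in the MHC class II-high cells and was higher in members by 2.35 ± 0.22. The fractalkine receptor Cx3cr1 (−1.26 ± 0.08), Ccr2 (−1.17 ± 0.09), the integrin Itgax (−2.63 ± 0.13) and Il1b (−2.35 ± 0.07) were lower in members. None of 20 interferon response genes was called in this comparison. Against Ly6c2 monocytes, 930 genes were higher (6.95% of 13390) and 1032 lower (7.71%). All 10 monocyte genes read were lower, with a median of −3.97, including Ccr2 (−1.93 ± 0.19). Of 23 lysosomal genes 11 were higher and 0 lower, and of 17 lipid genes 11 were higher and 1 lower. The monocytes also held S100a8, which is on the neutrophil list, at 2031, 20496, 13863 and 3350 CPM. They held the granule gene Camp at 1284 ± 1279 CPM. The part of neutrophil RNA in this comparison was not tested.

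The members were not uniform. The Cd163 UMIs came from 256, 129, 75 and 134 members, and the remaining 729, 482, 591 and 491 had none. Members with a Cd163 UMI held more Ccl8, by 1.63, 1.90, 1.43 and 0.78 on the log2 scale, more Clec10a (1.57, 1.64, 1.48 and 0.99) and more Ccl7 (1.35, 1.49, 1.89 and 0.47). They held less Spp1, a matrix glycoprotein (−1.78, −1.05, −1.57 and −1.57), less of the fatty acid binder Fabp5 (−1.24, −1.14, −1.53 and −1.65) and less H2-Ab1 (−0.66, −0.93, −0.53 and −0.38). The direction was the same in all 4 libraries for these 6 genes, and RA_7d had the smallest gap for Ccl8, Clec10a and Ccl7. Median UMIs per cell were 17335, 17096, 11758 and 12935 with Cd163 and 15498, 16206, 12462 and 13130 without. Since a cell with more captured molecules is more likely to show a Cd163 UMI, these values describe the cells and were not tested.

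Per-cell levels were skewed for some genes and even for others. The sum of the MHC class II genes had a median of 127, 65.0, 274 and 866 CPM over members and a 90th percentile of 14413, 4792, 21250 and 26505, so that its level was far higher in a minority of cells. Ccl8 had a median of 597, 215, 372 and 1662 CPM and was at 0 in 28.1%, 38.8%, 35.9% and 16.6% of members. C1q, by contrast, was at 0 in only 1.93%, 4.26%, 1.65% and 0.160% of members. A difference in a library's mean for Ccl8 or MHC class II can therefore come from the number of cells with the gene or from its level in them.

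RNA of other cell types was present in the members and differed between libraries. The 8 mesenchymal markers summed to 955 CPM in control_4d, 844 in RA_4d, 4980 in control_7d and 8342 in RA_7d, led by Col3a1 or Col1a1, against 41651 to 61903 in mesenchymal cells. Members with over 1000 CPM of 3 collagen genes made up 2.13%, 1.80%, 16.1% and 23.7%, and called doublets 1.52%, 0.818%, 5.11% and 10.7%. The 5 erythroid markers summed to 577, 105, 1011 and 615 CPM, led by Hbb-bs, and the 6 neutrophil markers to 59.1, 143, 118 and 71.1. T cell markers summed to at most 3.58 CPM and NK cell markers to at most 4.36. The 7 dpf members thus held several times more mesenchymal RNA than those at 4 dpf, most of all in RA_7d, and counts of the lists between libraries are given below also without the doublets and without the collagen-rich cells, an alternative added after seeing the data.

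Between RA and control, a gene counted as different when its summed level differed by at least 1.5-fold among genes with at least 100 UMIs. No test was possible with 1 library each. At 4 dpf, 154 of 10058 genes were higher in RA members (1.53%) and 283 lower (2.81%). At 7 dpf, 539 of 9835 were higher (5.48%) and 278 lower (2.83%). Without doublets the 7 dpf counts were 304 and 432, so that more genes were higher than lower at 7 dpf with the doublets and fewer without them. Without collagen-rich cells they were 414 and 268, in the main direction. At 4 dpf the counts were 165 and 248 without doublets and 135 and 279 without collagen-rich cells.

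Part of the resident macrophage genes differed, in opposite directions at 4 and 7 dpf. At 4 dpf, 0 of 27 were higher in RA and 10 lower, with a median of −0.43 beside 0.02 for all genes. At 7 dpf, 12 of 26 were higher and 1 lower, with a median of 0.43. Without doublets the counts were 0 and 10 at 4 dpf and 13 and 0 at 7 dpf, and without collagen-rich cells 0 and 10, and 13 of 25 and 0. The genes of the rule had medians of −0.23 at 4 dpf (6 compared) and 0.40 at 7 dpf (5 compared). Members of control_7d also had the lowest Mrc1 median, at 13 UMIs. Whether the resident genes shift with the genes that chose the cells was not tested. Of the monocyte genes, 2 of 10 were higher in RA and 3 lower at 4 dpf (median 0.04). At 7 dpf 0 of 9 monocyte genes were higher and 5 lower (median −0.68). The lower count at 7 dpf was 8 of 9 without doublets and 6 of 7 without collagen-rich cells. Ccl8 went from 4117 CPM in control to 2420 in RA at 4 dpf (log2 ratio −0.77) and from 2320 to 4459 at 7 dpf (0.94). Lyve1 went from 30.3 to 11.7 (−1.30) and from 7.82 to 16.6 (0.99), and Cd209f from 69.7 to 34.8 (−0.98) and from 5.87 to 39.4 (2.56). Cd163 was close at 4 dpf (114 and 99.9 CPM) and higher in RA at 7 dpf (28.8 and 81.6). For each of these 4 genes control_7d was the lowest library. Pf4, a platelet-type chemokine of macrophages, was the 1 resident gene that was lower in RA at 7 dpf, at 3408 and 3255 and then 2663 and 1749.

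Scavenger genes, which share members such as Cd209f with the resident list, and complement genes followed in part. Of 15 lectins and scavengers, 0 were higher and 4 lower at 4 dpf, and 8 higher and 3 lower at 7 dpf, where the median was 0.95. Without doublets and without collagen-rich cells the counts were again 0 and 4 of 15 at 4 dpf, and 8 and 2 of 14 at 7 dpf. Of 13 complement genes, 0 were higher and 3 lower at 4 dpf, and 6 higher and 0 lower at 7 dpf. Without doublets 2 complement genes were lower at 4 dpf, and 3 were higher and 1 lower of 12 at 7 dpf. Without collagen-rich cells 1 was lower at 4 dpf, and 3 of 11 were higher and 0 lower at 7 dpf. The complement inhibitor Serping1 held 30.0, 11.3, 56.2 and 136 CPM in control_4d, RA_4d, control_7d and RA_7d, and C3 held 74.3, 47.4, 50.5 and 173. Mesenchymal cells held 407 to 1042 CPM of Serping1 and 170 to 826 of C3, and their part in the members' values was not tested. C1qa, which did not pass 6.72 CPM in mesenchymal cells, stayed within 1.5-fold at both times (−0.31 and 0.10).

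Some genes differed the same way at both times. Egr1, an immediate early transcription factor, held 51.8 CPM in control and 121 in RA at 4 dpf (log2 ratio 1.21) and 59.0 and 177 at 7 dpf (1.57), and its relative Egr2 held 42.6 and 81.0, then 23.8 and 66.2. Both were higher in RA by 1.5-fold or more at each time. Ccl7 held 653 and 1027 CPM at 4 dpf and 327 and 799 at 7 dpf, and Ccl2 681 and 1022, then 342 and 685. Ccl3 and Ccl4 were likewise higher, with Ccl4 at 316 and 556 and then 269 and 490. Ccl7, Ccl3 and Ccl4 thus passed 1.5-fold at both times and Ccl2 at 7 dpf, since its log2 ratio of 0.58 at 4 dpf fell just short. Ccl8, from the same cluster as Ccl2 and Ccl7, was lower at 4 dpf. Of all 19 chemokines compared, these included, 4 were higher and 4 lower at 4 dpf, and 8 higher and 3 lower at 7 dpf. Without doublets the counts were 5 and 4, and 5 and 3. Without collagen-rich cells they were 4 and 3 of 17, and 7 and 1 of 18, and under the stricter rule the 7 dpf counts were 5 and 5. Among 15 immediate early genes 1 was higher at 4 dpf and 4 at 7 dpf, with 0 lower at either time, and these counts were the same without doublets and without collagen-rich cells. Egr1 in the other Csf1r cells held 47.1 and 72.2 CPM at 4 dpf and 63.5 and 170 at 7 dpf, so RA_7d was high there too.

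Spp1 was lower in RA at both times, at 3239 and 1564 CPM at 4 dpf (−1.05) and 1446 and 610 at 7 dpf (−1.24). Fabp5 was within 1.5-fold at 4 dpf (1467 and 1169) and lower in RA at 7 dpf (1822 and 646, −1.50). The cystine transporter Slc7a11 (69.1 and 17.5 CPM) and the glutathione enzyme subunit Gclm (233 and 79.5), both part of the oxidative stress response, were lower in RA at 7 dpf. Hmox1, of the same response, was alike at 4 dpf (1957 and 2006) and lower at 7 dpf (2648 and 956, −1.47). Slc40a1 held 44.8 and 78.0 CPM at 4 dpf and 170 and 67.8 at 7 dpf, and Spic 23.4 and 55.3, then 68.1 and 36.2. In these 5 genes control_7d was the highest library. In other Csf1r cells Hmox1 held 1274, 1016, 1048 and 328 CPM, with RA_7d again the lowest library.

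**Figure D4:**
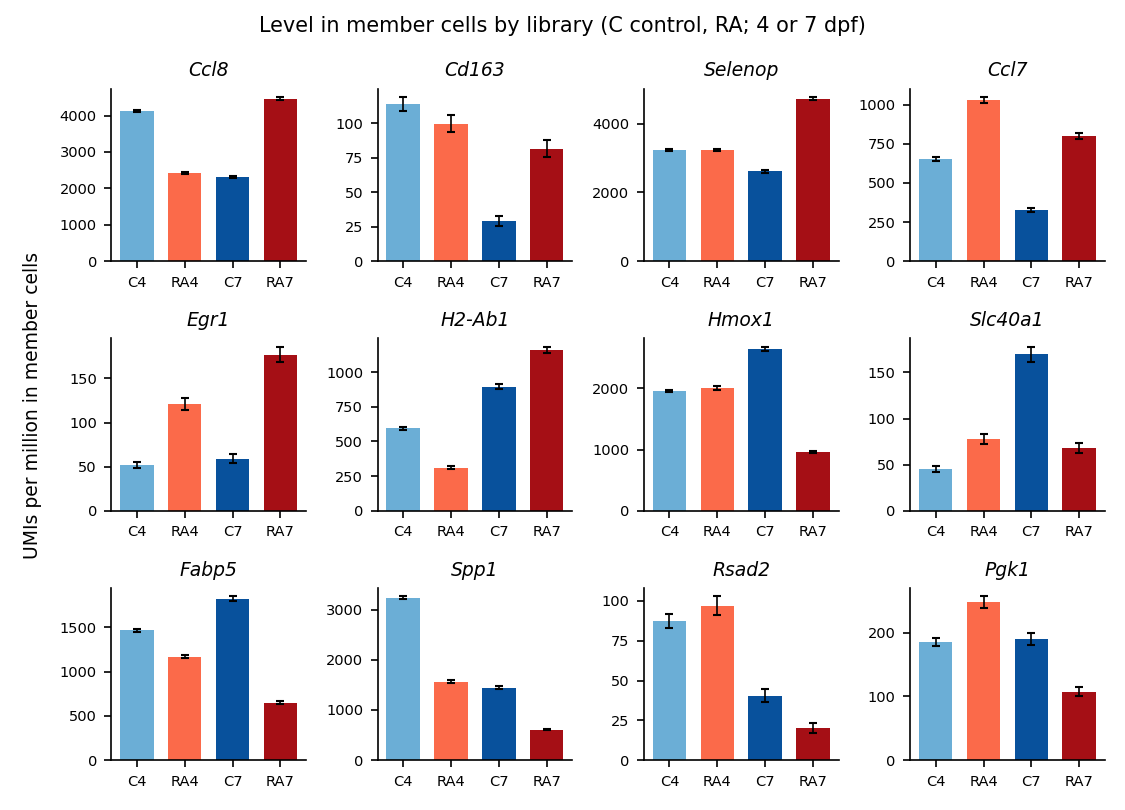
CPM of 12 genes in the members of each library; bars are single libraries (C control, RA; 4 or 7 dpf) and error bars are exact 95% Poisson intervals for counting error. Ccl8, Cd163 and Selenop are higher in RA than in control at 7 dpf, Hmox1, Slc40a1, Fabp5, Spp1, Rsad2 and Pgk1 are lower, and Egr1 and Ccl7 are higher in RA at both times.

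MHC class II genes differed at 4 dpf. All 7 MHC class II genes were lower in RA members at 4 dpf, with a median of −0.87, and 1 of 7 was higher at 7 dpf, with a median of 0.38. H2-Ab1 held 594 and 309 CPM at 4 dpf and 895 and 1163 at 7 dpf, and the invariant chain Cd74 1481 and 876, then 2093 and 2619. The 4 dpf count was also 7 of 7 without doublets, without collagen-rich cells and under the stricter rule, and the 7 dpf count was 2 of 7 without doublets and without collagen-rich cells. In the cells chosen for high H2-Ab1, the levels were 4333 and 3650 at 4 dpf and 4207 and 3944 at 7 dpf. In all other Csf1r cells they were 1222 and 858, then 1166 and 1209.

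Interferon response genes, which type I interferons switch on, differed in part at 7 dpf. Of 20 genes, 0 were past 1.5-fold at 4 dpf (median 0.15) and 12 were lower in RA at 7 dpf (median −0.75). Without doublets 13 of 20 were lower, and without collagen-rich cells 9 of 19 (median −0.55), with 0 of 20 past 1.5-fold at 4 dpf in both cases. Ifit3 held 59.4, 53.3, 45.9 and 16.7 CPM in control_4d, RA_4d, control_7d and RA_7d, and Ifit2 49.2, 55.0, 31.2 and 10.7. RA_7d was the low library for both. The other Csf1r cells held Ifit3 at 21.5, 17.0, 14.2 and 13 CPM, and the difference between the cell sets was not tested. Of 16 glycolysis genes 8 were lower and 1 higher in RA at 7 dpf (median −0.56), with 0 past 1.5-fold at 4 dpf. At 7 dpf 7 of 15 were lower without doublets and 8 of 15 without collagen-rich cells, with 0 higher in both cases, and 0 of 15 passed 1.5-fold at 4 dpf. Gapdh held 815, 885, 783 and 500 CPM, and in mesenchymal cells 958, 948, 868 and 555, so RA_7d was low in both. None of 20 genes of oxidative phosphorylation and none of 23 lysosomal genes passed 1.5-fold between RA and control at either time. Without doublets 1 lysosomal gene was lower at each time, and without collagen-rich cells 1 was lower at 4 dpf. Rbpj held 419 and 444 CPM at 4 dpf and 316 and 493 at 7 dpf (0.64).

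**Figure D5:**
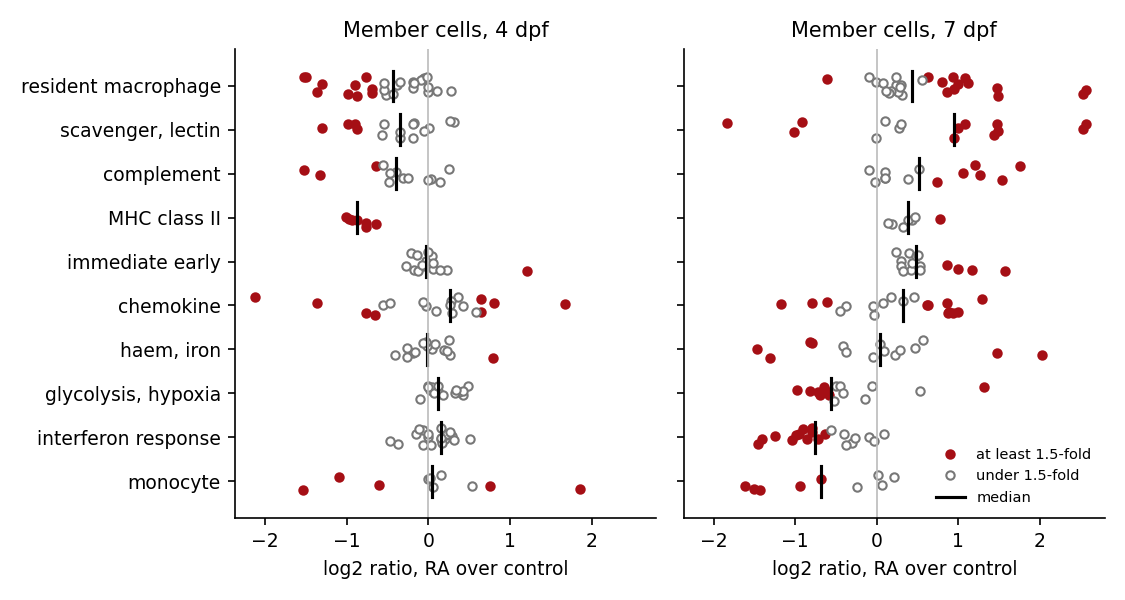
Log2 ratio of RA over control in members for the genes of 10 lists at 4 dpf (left) and 7 dpf (right), 1 point per gene with at least 100 UMIs; filled points differ by at least 1.5-fold and black bars are medians. The resident list has its median at −0.43 at 4 dpf and 0.43 at 7 dpf, the MHC class II list lies below 0 at 4 dpf, and the interferon list has its median at −0.75 at 7 dpf.

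From 4 to 7 dpf, 814 of 10263 genes were higher in control members (7.93%) and 168 lower (1.64%), and in RA 1201 of 9772 were higher (12.3%) and 325 lower (3.33%). These comparisons use the same libraries as those above. The highest ratios in control were those of cartilage and bone matrix genes, such as Col2a1 with 1 UMI at 4 dpf and 1199 at 7 dpf, Ibsp with 1 and 849, and Acan with 7 and 584. Without doublets, 493 genes were higher at 7 dpf in control and 566 in RA, and without collagen-rich members 240 and 587. Retnla, a secreted protein of alternatively activated macrophages, was not among the matrix genes, at 3.36 CPM at 4 dpf and 79.5 at 7 dpf in control and at 1.62 and 21.5 in RA. It was also high at 7 dpf in the MHC class II-high macrophages (195 and 220 CPM in control and RA) and at 0 in the monocytes of all 4 libraries.

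Part of the resident genes were lower at 7 dpf in control and part were higher in RA. In control, 0 of 27 were higher and 11 lower (median −0.49), and in RA 8 were higher and 1 lower (median 0.31). Without doublets 12 of 27 were lower in control and 10 higher in RA, and without collagen-rich cells 11 of 27 and 10 of 26. The 6 genes of the rule had medians of −0.55 in control and 0.06 in RA. Whether the resident genes shift with them was not tested. Of the monocyte genes, 3 of 10 were higher at 7 dpf in control and 3 lower (median −0.11). In RA 2 of 9 monocyte genes were higher and 5 lower (median −0.99). Cd163 held 114 and 28.8 CPM in control (log2 ratio −1.95) and 99.9 and 81.6 in RA (−0.29), and the sialic acid lyase Npl 152 and 56.7, and 84.5 and 77.3. Ccr2 held 245 and 106 CPM in control and 160 and 111 in RA, the latter within 1.5-fold, and Spp1 was lower at 7 dpf in both. Of the interferon response genes, 6 of 20 were lower at 7 dpf in control (median −0.35) and 16 of 20 in RA (median −1.14). Of the MHC class II genes, 1 of 7 was higher at 7 dpf in control (median 0.46) and 7 of 7 in RA (median 1.85), where the RA_4d library started from the lowest level. In RA the counts for these 2 lists were the same without doublets and without collagen-rich cells, and in control they were 4 and 5 lower interferon genes and 2 higher MHC class II genes in either case, against 0 MHC class II genes with TMM scaling.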

How the data were processed

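Cells from 4 pools of calluses (10000 loaded per library) were sequenced with 3′ single-cell chemistry, and the authors deposited raw UMI counts for 32285 genes per library (Cell Ranger 7.0.1 and mm10, per the submitters' processing notes). The 4 libraries held 7630 (control_4d), 5896 (RA_4d), 10206 (control_7d) and 10306 (RA_7d) barcodes with 168210361, 130168130, 177131833 and 182259646 UMIs. Cells with 4000 to 50000 UMIs, 2000 to 7000 genes and at most 8% mitochondrial UMIs were kept. One gene with an upper limit in the member rule, and the cells high in it, are not reported here. The members and the 41 gene lists, 13 of them for other cell types, were chosen with earlier results of these data known. MHC class II-high cells held at least 3 C1qa and 10 H2-Ab1 UMIs, monocytes at least 3 Ly6c2 UMIs and mesenchymal cells at least 10 Col1a1 UMIs. Doublets were called with Scrublet in scanpy 1.11.5 (592 cells, 2.32%) and kept in the main values.

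Sums per library were tested with edgeR 4.0.16 in R 4.3.3 (filterByExpr, TMM, library block) and with DESeq2 1.42.0 as an alternative. The library block pairs the sums of members and other cells because both come from the same pool, and p-values measure the spread between 4 pools only. In simulated counts for members against other Csf1r cells, changed genes were counted by adjusted p under 0.05 and direction, without the 2-fold limit. They numbered 96 of 100 for a change of 1 on the log2 scale and 100 of 100 for a change of 2. Of 15984 unchanged genes, 0 passed both limits. The simulated libraries came from 1 shared profile, without differences between treatments or times. Ratios between libraries used a pseudocount of 1 CPM, with exact 95% intervals (scipy 1.17.1) for counting error. Genes named were those of the rule and markers, up to 5 per list with the largest change at 20 CPM or more, and the 10 highest and 10 lowest per comparison with the same direction in all libraries or at both times. Further genes of the lists were named for their known role after their values were seen. Alternatives were other cell filters, denominators, gates, scalings, pseudocounts and count limits, thinning to 4000 UMIs, no block, equal weight per cell, each library left out, and doublets or collagen-rich cells left out, the last chosen after seeing the data.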

Additional observations from a re-analysis of the deposited data

Results flagged for a closer look

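The genes below come from the gene lists. They were singled out because their RA to control ratio in members was at least 1.5-fold one way at 4 dpf and the other way at 7 dpf. How many of all genes compared did the same is not given here. Each ratio rests on 1 library against 1 library, so the difference between the times was not tested. All values are log2 ratios, given for 4 dpf and then 7 dpf.

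Genes that were lower in RA at 4 dpf and higher at 7 dpf included lectins and other surface genes of the resident list. Cd209f went from −0.98 to 2.56 and its neighbour Cd209g from −0.87 to 2.53. Ccl8 went from −0.77 to 0.94 and Lyve1 from −1.30 to 0.99. The prostaglandin-degrading Hpgd went from −0.69 to 1.12. The lipid binder Fabp4 went from −0.66 to 1.38. The MHC class II regulator Ciita went from −0.97 to 0.77 and the macrophage growth factor Csf1 from −0.64 to 0.79. The complement genes C3 (−0.64 and 1.75) and Serping1 (−1.33 and 1.26) behaved likewise, and both were higher in mesenchymal cells than in members in every library.

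Other genes of the lists were higher in RA at 4 dpf and lower at 7 dpf. The monocyte genes Ly6c2 (0.75 and −1.62) and Chil3 (1.86 and −1.50) were among them, as were the interferon-induced chemokine Cxcl9 (1.67 and −1.18) and the protease Adam8 (0.62 and −1.11). The iron exporter Slc40a1 (0.79 and −1.31) and Spic (1.21 and −0.89) completed the group.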

How the results depend on the processing

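The share of members depended on the denominator and on the rule. The 7 dpf RA to control ratio turned to 1.40 among Csf1r cells, 1.34 among Ptprc cells and 1.16 under a stricter rule (at least 5 Mrc1 and 4 Folr2 and Cbr2 UMIs). The 4 dpf ratio was 0.929 among Csf1r cells, 0.738 under the stricter rule and 0.684 without the upper limits of the rule. The ratio of 7 to 4 dpf in control was 0.711, 0.734, 0.352 and 0.390 under these 4 settings (Csf1r, Ptprc, stricter rule, no upper limits) and 0.413 without collagen-rich members. In RA it turned to 1.07 and 1.18 with the Csf1r and Ptprc denominators, and was 0.606 with looser cell limits and 0.397 without collagen-rich members.

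Counts of genes past 1.5-fold, higher and then lower, moved with a pseudocount of 10 CPM to 50 and 78 for RA at 4 dpf, 253 and 132 at 7 dpf, 505 and 65 for time in control and 799 and 158 in RA. With a minimum of 20 UMIs, which admits more genes, they were 327 and 567, 1156 and 513, 1537 and 303, and 2408 higher in RA. Without doublets, 304 and 432 differed for RA at 7 dpf, and 493 and 566 were higher at 7 dpf in control and RA. Without collagen-rich cells 240 and 587 were, and with TMM scaling 519 were lower in RA over time. The cause was not tested.

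For members against other Csf1r cells, 918 genes were lower without the replicate block, which pairs sums of 1 library, and 1456 without collagen-rich cells. Thinned cells gave 378 higher, and C1qa cells as the other set 172 and 179. With 1 library left out, 606 to 672 genes were higher and 2282 to 2452 lower, and DESeq2 gave 627 and 2469. Among the lists, without the block 2 Notch, 1 growth factor, 1 apoptotic cell uptake and 3 inflammatory mediator genes were lower (7, 5, 3 and 6 with it). Lower chemokine genes went from 3 to 5 without RA_4d, and lower growth factors from 5 to 3 without RA_7d or without collagen-rich cells. Lower transcription factors went from 1 to 2 without RA_7d or control_4d, lower lysosomal genes from 1 to 2 without RA_7d and lower complement genes from 1 to 2 without control_7d. Without the block Hmox1, Rsad2, Slc40a1 and Chil3 lost their calls. Spp1, not called, turned to 0.03 without doublets, 0.00 without RA_7d and 0.12 without control_4d (−0.23 to 0.12 over the libraries left out), Fabp5 to −0.11 against C1qa cells, and Fn1 over time in control to −0.22 without collagen-rich cells.

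Depth and replication set the limits. Each group is 1 library, so no difference between RA and control or between times was tested, and intervals cover counting error only. Free RNA was not removed from the counts.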

Other observations

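Further lists were compared between RA and control members. Of 13 genes of the feedback on NF-kB signalling, 0 passed 1.5-fold at 4 or 7 dpf, also without doublets and without collagen-rich cells. Of 7 Fc receptors 1 was lower at 4 dpf and 0 differed at 7 dpf, where 1 was higher without doublets and without collagen-rich cells. Under the stricter rule 0 were higher and 2 lower at 7 dpf. Of 11 glucocorticoid response genes 2 were higher in RA at 4 dpf (median 0.29) and 3 at 7 dpf (median 0.49), with 0 lower, beside 1.53% and 5.48% of all genes and a median of 0.02 at both times. At 7 dpf 0 of 10 were higher without doublets, 2 of 10 without collagen-rich cells, 1 of 11 with TMM scaling and 4 of 10 under the stricter rule. At 4 dpf the count was 1 of 9 under the stricter rule and 2 in the other cases. Among them Fkbp5, a target of the glucocorticoid receptor, held 8.44, 37.9, 9.56 and 15.4 CPM in members of control_4d, RA_4d, control_7d and RA_7d, and thus stood apart in RA_4d.

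Part of the growth factor and matrix genes differed with time. Of 16 growth factors compared in control, 5 were higher at 7 dpf and 0 lower, beside 7.93% and 1.64% of all genes. Without doublets 4 of 15 were higher and 1 lower, and without collagen-rich cells 3 of 14 and 1. In RA 5 of 15 were higher and 1 lower, beside 12.3% and 3.33% of all genes. Igf1, which acts on bone-forming cells, held 286, 269, 396 and 480 CPM, and Gdf15, a stress-induced cytokine, 589, 458, 962 and 866. Gdf15 was higher at 7 dpf in control and in RA, and Igf1 in RA only, since its log2 ratio in control was 0.47. Of 16 matrix remodelling genes, 8 were higher and 1 lower over time in control (median 0.65), and 10 and 3 in RA (median 0.90). Without doublets the counts were 6 and 1 in control and 8 and 3 in RA. Without collagen-rich members they were 5 and 1, and 6 and 3 of 15, and the median in RA was −0.13, so that the sign of the median turned while more genes were still higher than lower.

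Markers of further cell types were low in members. Osteoclast markers summed to 116, 101, 191 and 147 CPM in the same order, endothelial markers to 60.7, 44.4, 65.1 and 138, and mural cell markers to 36.0, 35.5, 116 and 90.1. B cell markers summed to at most 19.9, dendritic cell markers to at most 16.2, muscle markers to at most 6.61 and mast cell markers to at most 1.31.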
